A study of Homo sapiens with 4 samples.

Results

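The genes of the cytosolic folding line for actin and tubulin were followed in SAS cells, a line from a human tongue squamous cell carcinoma. The set held the CCT chaperonin subunits with the phosducin-like proteins PDCL and PDCL3, the prefoldin subunits, the tubulin cofactors, and the alpha-, beta-, gamma-, delta- and epsilon-tubulin genes with the gamma-tubulin complex proteins. Members were taken by gene symbol alone, whatever their values, which gave 47 of the 35767 rows of the count table. They fell into 11 CCT and phosducin-like rows, 6 prefoldin rows, 5 cofactor rows, 16 alpha- and beta-tubulin rows, and 9 rows for gamma-tubulin, its complex and the rare tubulins.

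The study compared 2 libraries of SAS cells given a control siRNA (siControl) with 2 libraries labelled as given an siRNA against NAT10 (siNAT10), the enzyme that acetylates cytidine in RNA. All 4 came from the same line, and the sources used here give no time after transfection. The titles call the replicates biological but name no cultures, so each p-value reflects only how far these 4 libraries spread, which could be technical. The genotype label of siNAT10 replicate 2 names a NAT11 knockdown while its title names siNAT10, and it was kept as siNAT10.

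Library totals lay between 30794757 and 36341785 counts. The targeted mRNA itself stood at 240.2 and 231 CPM (counts scaled to a common library total) in siControl replicates 1 and 2, and at 252 and 248 CPM in the libraries labelled siNAT10. NAT10 thus did not fall (log2 fold change 0.09 ± 0.06 SE, n = 2 per group, edgeR adjusted p = 0.293), so directions below compare libraries by their label, siNAT10 against siControl. Of 8 squamous epithelial markers, 7 had a row and 3 exceeded 1 CPM in every library, with KRT17 the highest at 542 to 865 CPM, while KRT5 was at most 0.202 CPM and DSG3 at most 0.157 CPM. Summed squamous markers were 835 and 879.9 CPM in siControl and 550.0 and 593 CPM in siNAT10. Their part in the results below was not tested. The leukocyte marker PTPRC was at most 0.105 CPM.

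Newly made actin and tubulin chains do not fold unaided. Prefoldin, a jellyfish-shaped complex, holds the emerging chain and passes it to CCT (also TRiC), a double ring built from paralogous subunits that close over the client and use ATP to fold it. Tubulin then needs the cofactors TBCA to TBCE, which join an alpha chain to a beta chain into the dimer that builds microtubules, and gamma-tubulin with its complex proteins starts new microtubules at the centrosome. Cells also adjust tubulin mRNA to the pool of free dimers: when free dimers rise, a factor that reads the first residues of the emerging tubulin chain leads to decay of that mRNA on the ribosome.

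That feedback acts on the start of the coding sequence, so the starts are printed for 6 tubulins that the results turn on, 5 of which passed the test below, with the first 12 coding bases in capitals. They were read from GENCODE 29 transcripts (GRCh38).
TUBA1A: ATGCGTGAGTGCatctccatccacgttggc
TUBA1B: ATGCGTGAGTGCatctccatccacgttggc
TUBB: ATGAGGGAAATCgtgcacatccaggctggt
TUBB3: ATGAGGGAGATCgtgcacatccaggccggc
TUBB2A: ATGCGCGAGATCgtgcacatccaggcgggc
TUBB2B: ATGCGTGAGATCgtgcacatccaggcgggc
The capital bases of TUBB lie at chr6:30720507-30720518 (plus strand), those of TUBB3 at chr16:89923402-89923413 (plus strand), those of TUBB2A at chr6:3157452-3157463 and those of TUBB2B at chr6:3227532-3227543 (both minus strand). In TUBA1A and TUBA1B, both on the minus strand of chromosome 12, the first coding exon holds 3 coding bases, so their capitals span an intron. Leaving out the shorter TUBA4B, the 6 alpha-tubulin members had 4 distinct starts over these 12 bases and the 9 beta-tubulin members had 6. These differences change bases but no residue. The starts encode Met-Arg-Glu-Cys in all of these alpha-tubulins and Met-Arg-Glu-Ile in all of these beta-tubulins.

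The 3 TUBA1 genes lie side by side on chromosome 12 and did not move alike. TUBA1A and TUBA1B differed at 38 of 1353 coding bases (97.2% identity). TUBB2A and TUBB2B differed at 24 of 1335 (98.2% identity). Reads from the shared stretches could not be assigned to single genes with certainty, and the sources used here do not say how such reads were treated.

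Across the 47 members, 25 rose and 6 fell in siNAT10, 13 did not pass the test, and 3 had too few counts to be tested. The test was edgeR's quasi-likelihood test with Benjamini-Hochberg adjustment over 20098 tested genes and a threshold of 0.05. Over all tested genes, 19.7% were called higher and 20.7% lower, 40.4% in all. Called genes are more frequent among abundant ones, so the share was also taken over rows of at least 10 CPM on average, where 55.4% were called, 30.2% higher and 25.2% lower. Of the 39 members at that level, 25 were higher (64.1%) and 6 lower (15.4%). By group, the shares of tested rows higher and lower were 81.8% and 0% for CCT and phosducin-like rows, and 83.3% and 0% for prefoldin. They were 40% and 40% for cofactors, 46.2% and 15.4% for alpha- and beta-tubulins, and 33.3% and 22.2% for gamma-tubulin, its complex and the rare tubulins. Both libraries of one group lay above both of the other in 69.5% of all tested genes, 34.1% with siNAT10 higher and 35.4% with siNAT10 lower, and in 29 and 8 of the 44 tested members. The median log2 fold change of the 44 tested members was 0.34, against -0.0079 over all tested genes. With libraries scaled by their totals alone, 23 members were higher and 8 lower, and the median of all genes moved to -0.12. The calls over all genes then split into 2689 higher and 5601 lower, against 3951 and 4169 with TMM scaling. In bulk RNA, fewer cells of a kind and less RNA per cell cannot be told apart.

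**Figure D1:**
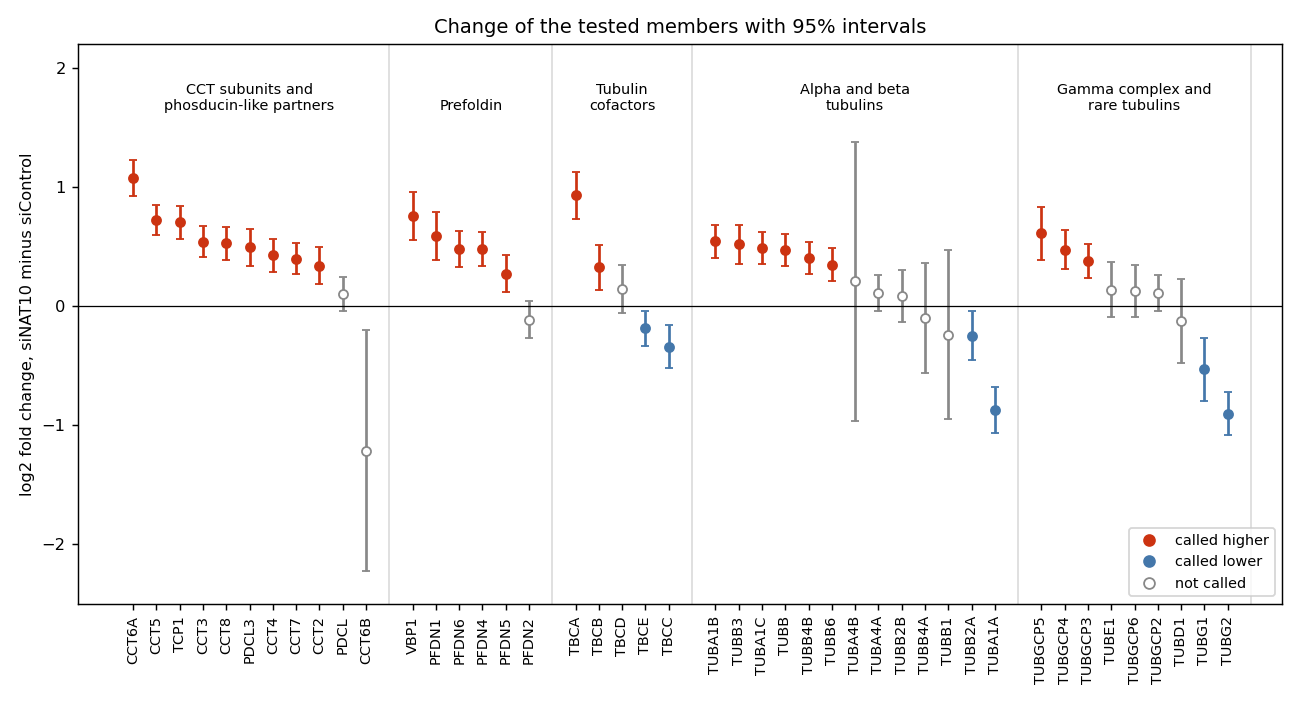
Log2 fold change, siNAT10 minus siControl, of the 44 tested members (points) with unadjusted 95% intervals (bars), by role. All 8 subunits of the ubiquitous CCT ring lie above 0, between 0.34 and 1.07, while TUBA1A, TUBG1, TUBG2 and the trace row CCT6B lie below -0.5.

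All 8 subunits of the ubiquitous CCT ring rose, each with both libraries labelled siNAT10 above both siControl libraries. CCT6A, the zeta subunit (chromosome 7, 56051630 to 56063989), rose the most. It had 179.5 and 157 CPM in siControl and 341 and 366 CPM in siNAT10, a 2.10-fold rise (log2 fold change 1.07 ± 0.07, edgeR adjusted p = 9.40e-10). The groups lay far apart beside the spread within them. Its pseudogene rows CCT6P1 to CCT6P4 together held 4.34% and 4.52% of its counts in siControl and 3.52% and 2.90% in siNAT10.

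CCT5, the epsilon subunit, was the most abundant subunit per length. It had 1175 and 1157 CPM in siControl and 1929.9 and 1917 CPM in siNAT10 (log2 fold change 0.72 ± 0.06, edgeR adjusted p = 1.85e-08). The libraries of a group lay close together and the groups far apart. The antisense row CTD-2256P15.4 shares exon bases with CCT5 and also rose, by 1.17 on the log2 scale, from 15.3 to 34.3 CPM on average. TCP1, the alpha subunit and the first of the family to be described, went from 94.8 and 92.2 CPM to 153 and 151 CPM (0.70 ± 0.07, adjusted p = 6.84e-08). Its tail overlaps ACAT2 on the other strand, which rose by 0.26.

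The middle subunits moved by similar amounts. CCT3 (gamma) had 441 and 450.4 CPM in siControl and 634 and 663 CPM in siNAT10 (log2 fold change 0.54 ± 0.06). CCT8 (theta) had 248 and 247 CPM against 341 and 373 CPM, a log2 fold change of 0.53 ± 0.07. In both genes the lower siNAT10 library stood well above the higher siControl library. CCT4 (delta) had 134 and 132 CPM against 181 and 176 CPM (0.42 ± 0.06), and CCT7 (eta) had 388 and 406 CPM against 515 and 530.4 CPM (0.40 ± 0.06). These 4 subunits had edgeR adjusted p from 1.15e-06 to 4.78e-05.

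CCT2, the beta subunit, changed the least of the ring. CCT2 stood at 91.3 and 86.3 CPM in siControl and at 105 and 119 CPM in siNAT10 (log2 fold change 0.34 ± 0.07, edgeR adjusted p = 0.00109). The libraries labelled siNAT10 differed from each other by as much as the lower one differed from siControl replicate 1. Without siNAT10 replicate 2 the value was 0.25 and the call was lost (adjusted p = 0.0552). The intervals of CCT2 (0.18 to 0.49) and CCT6A (0.92 to 1.22) did not overlap.

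The ring takes 1 copy of each subunit per ring, but the mRNAs were far from equal per length of exon. On the scale of CPM per kilobase, CCT5 stood at 201 and 198 in siControl. CCT3 (109.7 and 112) and CCT7 (108 and 113) came next and did not differ beyond their spread, followed by CCT8 (74.3 and 74.0). CCT4 (47.4 and 46.7) and CCT6A (46.0 and 40.2) lay close together, and CCT2 (mean 20.5) and TCP1 (mean 19.0) were lowest. In siNAT10, CCT6A (87.4 and 93.8) stood above CCT4 (64.0 and 62.1), and TCP1 (mean 30.9) above CCT2 (mean 26.0). These levels use the deposited length of all exons of a gene, which may be longer than the transcripts present. The ratio of CCT6A to CCT2 per length was 2.18 and 2.01 in siControl and 3.59 and 3.40 in siNAT10, so the subunits did not rise in proportion. As shares of the summed ring mRNA per length, CCT6A took 6.90% (SD 0.627, n = 2) in siControl and 9.50% (SD 0.289, n = 2) in siNAT10, and CCT7 took 17.7% (SD 0.668) and 15.3% (SD 0.0166).

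**Figure D2:**
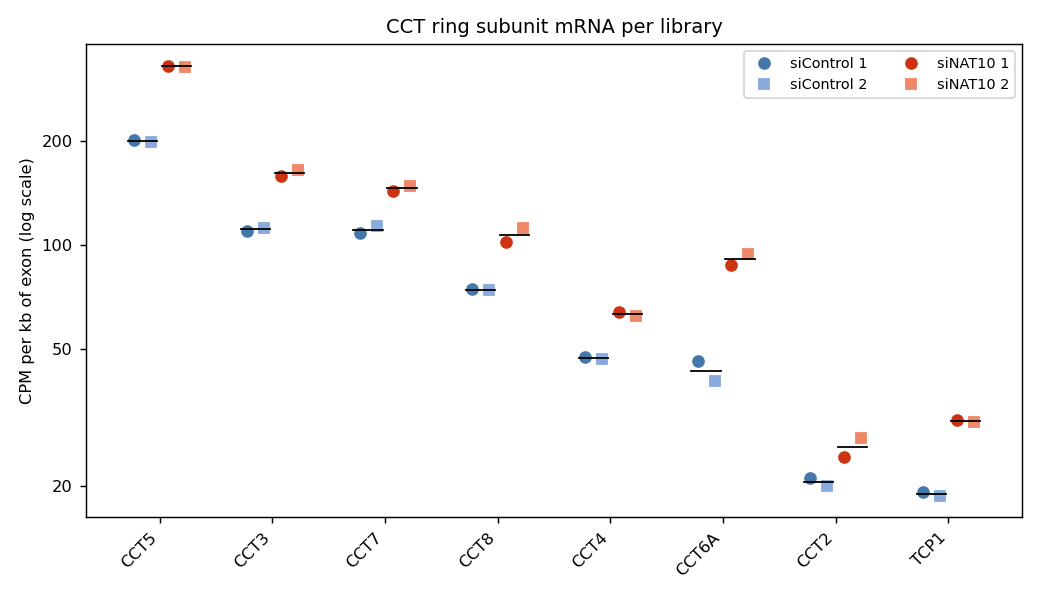
mRNA level of the 8 CCT ring subunits in CPM per kilobase of exon (log axis), for each library (points) with group means (lines). Both siNAT10 points lie above both siControl points for every subunit, and CCT5 is highest and TCP1 lowest in siControl.

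CCT6B, the testis form of the zeta subunit, was at a trace level and had lower values in siNAT10. It had 29 and 32 counts in siControl and 7 and 15 in siNAT10, all above the floor of 3 counts. The log2 fold change was -1.22 ± 0.48, and the edgeR adjusted p of 0.0514 did not pass. It passed in 4 of 10 alternatives, among them totals alone (adjusted p = 0.0342) and leaving out siNAT10 replicate 2 (0.0168), with a range over the alternatives from 0.0168 to 0.365. LIG3, whose exons overlap it on the other strand, rose by 0.63. No CCT or phosducin-like row was called lower by edgeR, 1 (CCT6B) had an unadjusted p under 0.05, and DESeq2 called 0.

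The phosducin-like proteins bind CCT and help it load or release clients. PDCL3 had 60.8 and 69.8 CPM in siControl and 91.5 and 92.0 CPM in siNAT10 and rose (log2 fold change 0.49 ± 0.07, edgeR adjusted p = 3.05e-05). PDCL, which assists G protein beta folding, had 138 and 140.4 CPM against 155 and 143 CPM. Its groups did not overlap, but the difference of 0.10 ± 0.07 (interval -0.04 to 0.24) did not pass (adjusted p = 0.246).

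CCT genes are known targets of the heat shock factor HSF1, and as a description of their promoters the letters GAANNTTC and TTCNNGAA, each its own reverse complement so that 1 search reads both strands, were searched for. The 2 patterns can overlap each other where they share a GAA or TTC unit. RefSeq promoters (GRCh38.p14, 250 bases before to 50 after each listed start) matched 44 of the 47 members, some with several starts, and CCT6A, PFDN2 and TUBGCP4 had no entry. Either pattern was in 3 of 9 promoters of ring subunits, in 10 of 59 promoters of all members and in 13.5% of 35116 promoters overall. The matched stretches upstream of a listed start of CCT2 and of TCP1 are shown, with the match in capitals.
CCT2: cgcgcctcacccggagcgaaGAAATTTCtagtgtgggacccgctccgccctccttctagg
TCP1: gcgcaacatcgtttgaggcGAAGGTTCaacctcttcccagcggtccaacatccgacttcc
The CCT2 stretch is chr12:69585780-69585839 (plus strand) and the TCP1 stretch is chr6:159789793-159789852 (minus strand). The CCT2 stretch lies upstream of the second of its 2 listed starts but downstream of the first, whose promoter held 0 matches. The third match, in CCT4, lay 38 bases after the start. A match is a run of letters, not a site shown to be used.

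Of 6 prefoldin subunits, 5 rose and PFDN2 did not pass. VBP1 (prefoldin 3), an alpha-type subunit, had 21.9 and 20.8 CPM in siControl and 32.7 and 39.3 CPM in siNAT10 (log2 fold change 0.75 ± 0.10, edgeR adjusted p = 4.04e-06). PFDN1 went from 34.2 and 30.1 CPM to 43.3 and 53.3 CPM (0.59 ± 0.10). Both genes were higher in siNAT10 replicate 2 than in replicate 1, and their groups did not overlap.

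PFDN4 and PFDN6, both beta-type subunits, rose by the same size. PFDN4 had 70.4 and 69.3 CPM against 95.2 and 98.9 CPM, a log2 fold change of 0.48 ± 0.07. PFDN6 had 47.1 and 47.9 CPM against 64.7 and 67.6 CPM, also a log2 fold change of 0.48 ± 0.07. The edgeR adjusted p of these 2 and PFDN1 were at most 7.01e-05. PFDN5, the other alpha-type subunit, also known as MM-1 for its binding to MYC, had 59.7 and 57.8 CPM against 67.2 and 74.5 CPM (0.27 ± 0.07, adjusted p = 0.00623). Its call was lost with totals alone (0.16, adjusted p = 0.0944) and without siNAT10 replicate 2 (0.20, adjusted p = 0.137).

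PFDN2, a beta-type subunit, had 491 and 575 CPM in siControl and 516 and 469.6 CPM in siNAT10. Its groups overlapped, and the log2 fold change of -0.11 ± 0.07 (interval -0.27 to 0.04) did not pass (edgeR adjusted p = 0.242). It passed as lower with totals alone (-0.22, adjusted p = 0.0206) and without siControl replicate 1 (-0.22, adjusted p = 0.00185). NIT1, which overlaps it on the other strand, fell by 0.45 on the log2 scale. The PFDN2 row is the shortest of the set at 677 bases, and per kilobase it stood at 726 and 849 CPM in siControl, far above the other prefoldin rows, of which PFDN4 was next at 35.6 and 35.1. Summed per length, the 6 prefoldin rows stood at 822 and 942 CPM per kilobase in siControl and 888 and 833 in siNAT10. These groups overlapped, with a ratio of means of 0.976, so the summed prefoldin mRNA did not rise. PFDN2 took 89.2% of that sum in siControl and 84.5% in siNAT10. No prefoldin row was called lower by edgeR or by DESeq2 (0 each), and 0 had an unadjusted p under 0.05 in that direction.

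The 5 tubulin cofactors split. TBCA, which holds beta-tubulin after CCT, rose the most, from 146 and 114 CPM in siControl to 239 and 257 CPM in siNAT10 (log2 fold change 0.93 ± 0.09, edgeR adjusted p = 1.11e-06). The siControl libraries differed from each other by less than the 1.90-fold between groups, and the value was 0.76 without siControl replicate 2 and 1.11 without siControl replicate 1. TBCB, which holds alpha-tubulin, shares exon bases with AD001527.4 on the same strand and with POLR2I on the other. In siControl AD001527.4 had 14.8 and 17.3 CPM and POLR2I 15.2 and 17.7 CPM, and neither passed (0.15 and 0.17). How many TBCB reads are shared with these rows is not known. TBCB had 21.1 and 20.1 CPM against 25.2 and 26.4 CPM (0.32 ± 0.09, adjusted p = 0.00794). That call was lost with totals alone (0.21, adjusted p = 0.0711) and without siNAT10 replicate 2 (0.29, adjusted p = 0.0637).

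TBCC, which triggers GTP hydrolysis and release of the finished dimer, fell. It had 31.2 and 33.1 CPM in siControl and 25.3 and 25.4 CPM in siNAT10 (log2 fold change -0.34 ± 0.09, edgeR adjusted p = 0.00350), and passed in 12 of 12 alternatives. TBCE, the alpha-tubulin cofactor of the same assembly, had 76.5 and 82.6 CPM against 68.9 and 70.8 CPM (-0.19 ± 0.07, adjusted p = 0.0406). TBCE passed in 6 of 11 alternatives only and was lost when siControl replicate 2 (-0.13, adjusted p = 0.198), siNAT10 replicate 1 (-0.16, 0.234) or siNAT10 replicate 2 (-0.21, 0.128) was left out. TBCD, the beta-tubulin cofactor, had 25.5 and 22.6 CPM against 24.9 and 28.4 CPM, with overlapping groups and no call (0.14 ± 0.10, adjusted p = 0.256). Per length, TBCA stood at 1.60 and 1.16 times TBCE in siControl and at 2.91 and 3.04 times in siNAT10.

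**Figure D3:**
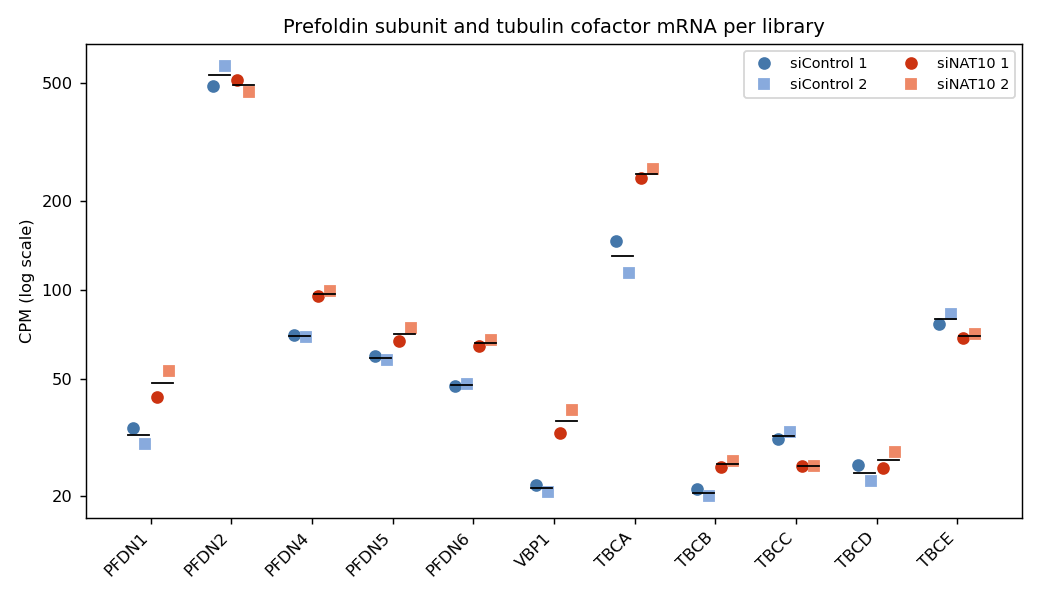
mRNA level in CPM (log axis) of the 6 prefoldin and 5 cofactor genes in each library (points) with group means (lines). TBCA shows the widest gap between groups, the PFDN2 and TBCD points overlap, and TBCC and TBCE are lower in siNAT10.

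Of 16 alpha- and beta-tubulin rows, 6 rose, 2 fell, 5 did not pass and 3 were not tested. Those that rose were the 5 with the most CPM and TUBB3, and those that fell were TUBA1A and TUBB2A. TUBA1B, the main alpha-tubulin of dividing cells, went from 505 and 535 CPM to 732 and 783 CPM (log2 fold change 0.54 ± 0.06, edgeR adjusted p = 1.76e-06). TUBA1C went from 188 and 200.1 CPM to 266 and 278 CPM (0.49 ± 0.07, adjusted p = 7.26e-06). For both, the libraries of a group lay close together and the groups apart. The opposite-strand row RP11-386G11.10 shares exons with TUBA1B, held nearly as many reads, and rose alike by 0.52. The opposite-strand row RP11-161H23.5 shares exons with TUBA1C and rose by 0.46. The sources used here do not give the strand setting, and the members of these pairs cannot be told apart if strand was ignored.

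TUBA1A, the isotype best known from developing neurons, fell while its neighbours rose. It had 51.8 and 61.3 CPM in siControl and 28.7 and 33.1 CPM in siNAT10, a 1.83-fold fall (log2 fold change -0.87 ± 0.09, edgeR adjusted p = 3.76e-07). Both siNAT10 libraries lay well below both siControl libraries, and the call held in 11 of 11 alternatives that tested it. Its row (chromosome 12, 49184796 to 49189324, minus strand) shares exon bases with TUBA1C on the other strand, which rose. Neuronal markers were low in every library, 3.32 to 4.36 CPM summed over 4 genes. The ratio of TUBA1A to TUBA1B per length was 0.107 and 0.120 in siControl and 0.0409 and 0.0442 in siNAT10. As printed above, the 2 genes share their first 30 coding bases.

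Their upstream sequences were searched for the CCAAT box, a common promoter element, on both strands as CCAAT and ATTGG. The 250 bases before each listed start are shown because the 2 genes moved apart, with matches in capitals (RefSeq, GRCh38.p14, minus strand).
TUBA1A: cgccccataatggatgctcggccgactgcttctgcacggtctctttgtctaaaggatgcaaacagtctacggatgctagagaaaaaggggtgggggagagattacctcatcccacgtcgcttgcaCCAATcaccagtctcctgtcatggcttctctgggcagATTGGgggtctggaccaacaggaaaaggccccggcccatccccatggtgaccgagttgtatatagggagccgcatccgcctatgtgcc
TUBA1B: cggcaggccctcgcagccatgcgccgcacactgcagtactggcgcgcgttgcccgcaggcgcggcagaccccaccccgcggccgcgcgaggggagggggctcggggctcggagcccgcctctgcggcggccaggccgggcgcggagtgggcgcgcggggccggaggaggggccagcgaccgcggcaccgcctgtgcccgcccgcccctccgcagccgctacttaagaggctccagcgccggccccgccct
The TUBA1A stretch is chr12:49189081-49189330 and the TUBA1B stretch chr12:49131396-49131645. TUBA1A held 2 matches and TUBA1B held 0. Over all members the letters were in 30 of 59 promoters, over alpha- and beta-tubulins in 13 of 22, and over all 35116 promoters in 34.6%. The match is a description and was tested against nothing.

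Among beta-tubulins, TUBB, the main isotype of most cells, went from 373 and 382 CPM to 504 and 540.5 CPM (log2 fold change 0.47 ± 0.06, edgeR adjusted p = 8.71e-06). TUBB4B, another widely expressed isotype, went from 281 and 301 CPM to 382 and 387 CPM (0.40 ± 0.06, adjusted p = 5.14e-05). TUBB6 went from 158 and 159.7 CPM to 208 and 195 CPM (0.35 ± 0.07, adjusted p = 2.83e-04). In all 3 the groups stood apart by more than the spread within them. The opposite-strand row XXbac-BPG252P9.9 shares exon bases with TUBB, had 177 and 178 CPM in siControl and rose by 0.49. AFG3L2 overlaps TUBB6 on the other strand, had 197 and 207 CPM in siControl and rose by 0.24. FAM166A overlaps TUBB4B on the other strand, had at most 6.30 CPM and rose by 0.79. Here too, reads from shared bases cannot be told apart if strand was ignored. TUBB3, an isotype used as a neuronal marker and often raised in carcinomas, went from 30.7 and 32.4 CPM to 44.8 and 45.5 CPM (0.52 ± 0.08, adjusted p = 3.28e-05). The read-through row RP11-566K11.2 on the same strand shares its exons and rose by 0.43, so the 2 rows are not separate evidence.

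TUBB2A had 22.4 and 25.6 CPM in siControl and 19.5 and 20.9 CPM in siNAT10. Its fall was small and barely passed (log2 fold change -0.25 ± 0.10, edgeR adjusted p = 0.0470). It was lost with DESeq2 (adjusted p = 0.137) and when siControl replicate 2 (-0.15, 0.323), siNAT10 replicate 1 (-0.19, 0.251) or siNAT10 replicate 2 (-0.30, 0.0689) was left out. Its near-copy TUBB2B had 16.9 and 19.8 CPM against 20.1 and 18.7 CPM, with overlapping groups (0.08 ± 0.10, adjusted p = 0.554).

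The remaining isotypes were scarce or did not pass. TUBA4A had 51.8 and 55.6 CPM against 56.6 and 59.2 CPM (log2 fold change 0.11 ± 0.07, edgeR adjusted p = 0.261). TUBB4A, the brain isotype, lay between 2.19 and 2.48 CPM in the 4 libraries, TUBB1, the platelet isotype, between 0.812 and 1.34 CPM, and TUBA4B between 0.237 and 0.635 CPM. None of these 4 passed, and the log2 fold changes of the last 3 were -0.10 ± 0.22, -0.24 ± 0.34 and 0.21 ± 0.56. TUBA3D had 4 and 12 counts in siControl and 0 in both siNAT10 libraries, TUBB8 had 4 and 2 against 0 and 0, and TUBA3C had 0 and 2 against 0 and 0. These 3 rows had too few counts for the count filter. Without that filter edgeR called TUBA3D lower (adjusted p = 0.0170) and not TUBB8 (0.361) or TUBA3C (0.638), and TUBA3D did not pass in the fits without siNAT10 replicate 1 (0.0921) or 2 (0.0849). A count of 0 allows up to 3 counts, or 0.0787 to 0.102 CPM by library on the TMM scale, for counting error only.

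Summed over isotypes per length, alpha- and beta-tubulin mRNA rose together. Alpha-tubulin rows summed to 210.1 and 225 CPM per kilobase in siControl and 285 and 303 in siNAT10, a ratio of means of 1.35. Beta-tubulin rows summed to 311 and 327 against 413 and 423, a ratio of 1.31. The ratio of alpha to beta was 0.675 and 0.688 in siControl and 0.689 and 0.717 in siNAT10, so the groups lay close together. The 8 ring subunits summed to 627 and 623 against 941 and 967, a ratio of 1.53. Ring mRNA relative to alpha- plus beta-tubulin mRNA was 1.20 and 1.13 in siControl and 1.35 and 1.33 in siNAT10. With 2 libraries against 2, an exact two-sided permutation test of such a ratio cannot go below p = 0.333, so none was called.

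Within the alpha-tubulins, TUBA1A took 7.59% (SD 0.536, n = 2) of the length-scaled counts in siControl and 3.07% (SD 0.177, n = 2) in siNAT10, while TUBA1B took 66.9% (SD 0.546) and 72.0% (SD 0.195). TUBA1C took 19.3% and 19.2% in siControl and 20.2% and 19.8% in siNAT10. Within the beta-tubulins, TUBB2A took 4.36% (SD 0.255) and 2.80% (SD 0.0942). TUBB4B took 43.2% (SD 0.522) and 43.5% (SD 0.370), which differed by less than the spread between libraries, and TUBB 35.2% (SD 0.624) and 37.2% (SD 1.18).

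**Figure D4:**
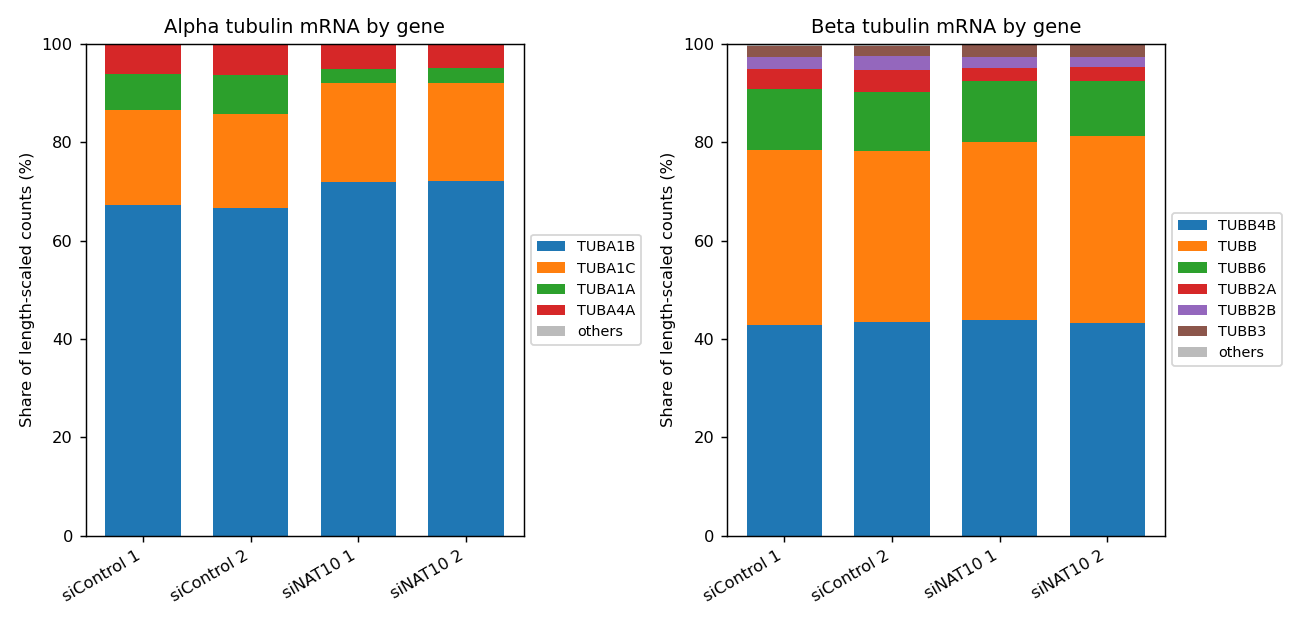
Share of length-scaled alpha-tubulin (left) and beta-tubulin (right) counts taken by each gene in each library, in percent, as stacked bars. The TUBA1A band is narrower in both siNAT10 libraries (2.94% and 3.19%) than in siControl (7.21% and 7.97%), while the beta-tubulin bands of TUBB4B keep their height.

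Gamma-tubulin, the tubulin that nucleates microtubules, fell. TUBG1, the main gene, had 253 and 341 CPM in siControl and 205 and 206 CPM in siNAT10 (log2 fold change -0.53 ± 0.12, edgeR adjusted p = 0.00509). The siControl libraries differed from each other by more than siControl replicate 1 differed from either siNAT10 library. The value was -0.30 without siControl replicate 2 and -0.73 without siControl replicate 1, and it passed in 11 of 11 alternatives. FAM134C, whose exons overlap TUBG1 on the other strand, had the same pattern, with 123 and 166 CPM against 96.0 and 97.7 CPM (-0.58).

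TUBG2, the close paralog that lies next to it (TUBG1 at 42609676 to 42615234 and TUBG2 at 42659305 to 42667006 on chromosome 17), fell by more. It had 63.7 and 75.1 CPM in siControl and 38.7 and 35.4 CPM in siNAT10, a 1.87-fold fall (log2 fold change -0.90 ± 0.09, edgeR adjusted p = 8.07e-08), with no overlap of groups and a call in 12 of 12 alternatives. The 2 genes summed per length to 128 and 169 CPM per kilobase in siControl and 99.1 and 98.0 in siNAT10.

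Of the 5 gamma-tubulin complex proteins, which hold gamma-tubulin in its ring, 3 rose. Over all 9 rows of gamma-tubulin, its complex and the rare tubulins, 33.3% were higher and 22.2% lower. These shares were near the 30.2% and 25.2% over rows of at least 10 CPM. TUBGCP5 had 16.5 and 13.6 CPM in siControl and 22.1 and 23.9 CPM in siNAT10 (log2 fold change 0.61 ± 0.11, edgeR adjusted p = 1.28e-04). TUBGCP4 had 34.0 and 33.2 CPM against 45.4 and 47.8 CPM (0.47 ± 0.08), and TUBGCP3, one of the core pair with TUBGCP2, had 63.0 and 64.7 CPM against 82.2 and 83.9 CPM (0.38 ± 0.07). Their groups stood apart, with adjusted p of 7.90e-05 and 1.82e-04 for the last 2. TP53BP1, which overlaps TUBGCP4 on the other strand, rose by 0.54. TUBGCP2 had 58.2 and 57.9 CPM against 60.7 and 64.3 CPM (0.11 ± 0.07, adjusted p = 0.248) and TUBGCP6 had 16.3 and 16.4 CPM against 19.1 and 16.5 CPM (0.13 ± 0.10, adjusted p = 0.362), and neither passed. The centriolar tubulins TUBD1 (5.12 and 5.09 CPM against 5.14 and 4.16) and TUBE1 (16.0 to 20.3 CPM over the 4 libraries) had overlapping groups and were not called, at log2 fold changes of -0.13 ± 0.17 and 0.13 ± 0.11. TUBE1 passed as higher without siControl replicate 1 (0.31, edgeR adjusted p = 0.0347).

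**Figure D5:**
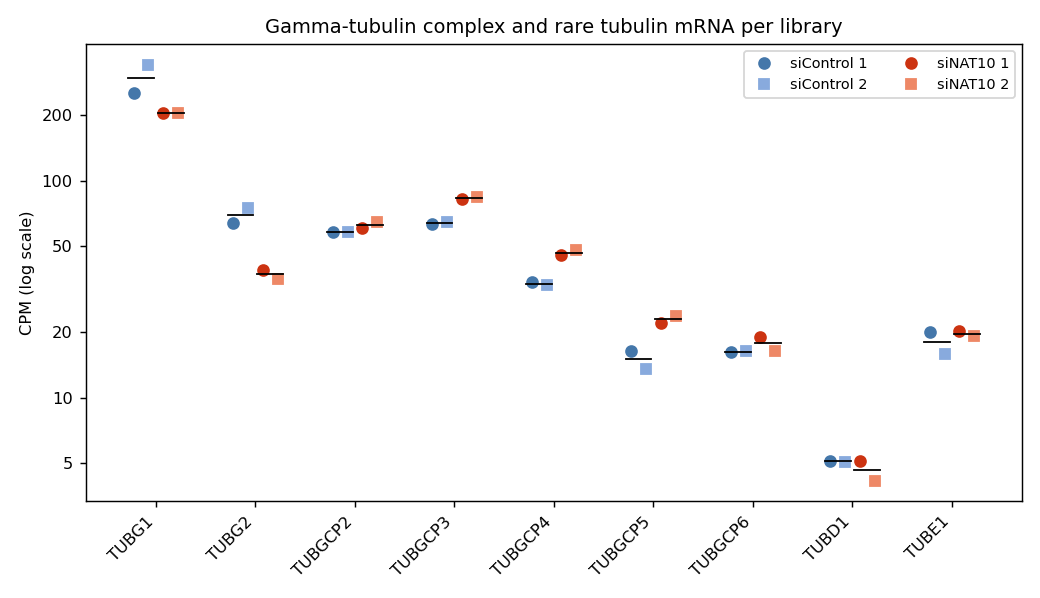
mRNA level in CPM (log axis) of gamma-tubulin, its complex proteins and the delta- and epsilon-tubulin genes in each library (points) with group means (lines). TUBG1 and TUBG2 are lower in both siNAT10 libraries, with the 2 siControl points of TUBG1 wide apart, while TUBGCP3, TUBGCP4 and TUBGCP5 are higher.

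Other genes of these pathways were taken from lists of known partners. Their shares stand beside 19.7% higher and 20.7% lower over all tested genes, and 30.2% and 25.2% over rows of at least 10 CPM. Of 19 CCT clients other than tubulin, 7 rose (36.8%) and 2 fell (10.5%), with a median log2 fold change of 0.05, and 1 fell without siNAT10 replicate 2. Both cytoplasmic actins, the other main CCT clients, rose: ACTB from 748 and 753 CPM to 1660.0 and 1699 CPM (1.16 ± 0.06, edgeR adjusted p = 3.18e-11), and ACTG1 from 794 and 778 CPM to 1329 and 1430.5 CPM (0.81 ± 0.06). CDC20, the activator of the anaphase-promoting complex, went from 19.8 and 21.3 CPM to 43.7 and 44.9 CPM (1.10 ± 0.09). VHL, the ubiquitin ligase subunit that CCT assembles, fell from 71.5 and 79.6 CPM to 47.6 and 48.1 CPM (-0.66 ± 0.07).

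Of 13 measured genes of the prefoldin-like and R2TP complexes, which assemble RNA polymerases and large kinases, 6 rose (46.2%) and none fell, with a median log2 fold change of 0.17. RUVBL1 went from 213 and 211 CPM to 304 and 297 CPM (0.51 ± 0.06, edgeR adjusted p = 2.92e-06), and URI1, RPAP3 and RUVBL2 rose by 0.36, 0.33 and 0.28. By edgeR 0 were called lower, 0 had an unadjusted p under 0.05 in that direction, and DESeq2 called 0. Of 21 partners of the gamma-tubulin ring complex, 9 rose (42.9%) and 4 fell (19.0%), with a median of 0.19, and without siNAT10 replicate 2 the counts were 5 and 1. The centrosomal scaffolds NIN and AKAP9, the recruiting factor NEDD1 and the augmin subunit HAUS6 rose by 0.56, 0.55, 0.54 and 0.40.

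Of 22 measured tubulin-modifying enzymes, 3 rose, 4 fell, 12 did not pass and 3 were not tested. The 15.8% higher and 21.1% lower of those tested were near the shares over all tested genes. VASH1, which removes the last tyrosine of alpha-tubulin, fell from 8.97 and 8.59 CPM to 2.94 and 3.39 CPM (log2 fold change -1.48 ± 0.16, edgeR adjusted p = 3.87e-07), and TTL, which restores it, had 91.0 and 90.3 CPM against 107 and 111 CPM (0.27 ± 0.07, adjusted p = 0.00357). The TTL call was lost with totals alone (0.15, adjusted p = 0.0745) and without siNAT10 replicate 2 (0.24, 0.0656). The deglutamylase gene AGTPBP1 fell by 0.50 and the glutamylase gene TTLL5 rose by 0.35. Without siControl replicate 1 or without siNAT10 replicate 1, 2 of these enzymes fell instead of 4.

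Of 36 measured microtubule regulators, 11 rose, 8 fell, 14 did not pass and 3 were not tested, and 5 fell without siNAT10 replicate 1. The 33.3% higher and 24.2% lower of those tested were near the shares over rows of at least 10 CPM. MAP7, a kinesin-1 recruiting protein, fell from 929 and 1022 CPM to 499 and 465 CPM (log2 fold change -1.02 ± 0.07, edgeR adjusted p = 7.52e-10), while its relative MAP7D3 rose from 181 and 175 CPM to 311 and 301 CPM (0.78 ± 0.06). MAP1B fell from 21.7 and 20.9 CPM to 8.60 and 6.30 CPM (-1.51 ± 0.13), and the spindle protein gene TACC3 rose from 170.1 and 177 CPM to 299 and 314 CPM (0.82 ± 0.06). The share lower among 8 measured partners of tubulin folding and tubulin mRNA feedback, 25%, was near the 25.2% over rows of at least 10 CPM. Of these partners, 2 fell. These were TBCEL, a TBCE-like protein that destabilises tubulin (10.1 and 10.2 CPM against 6.09 and 4.67 CPM, -0.91 ± 0.15), and RP2, a TBCC-related protein that acts on the small GTPase ARL3 (-0.37 ± 0.10, lost without siNAT10 replicate 1 at adjusted p = 0.0544). By edgeR 0 of these partners rose, 1 (TXNDC9) had an unadjusted p under 0.05 upward, and DESeq2 called 0 higher. TTC5, the factor that reads the start of tubulin chains, and SCAPER, which acts with it, did not pass, with log2 fold changes of 0.14 and -0.10 (adjusted p = 0.425 and 0.283).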

How the data were processed

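RNA of 4 SAS cell libraries was extracted with TRIzol, prepared with a KC Digital mRNA kit and sequenced paired-end, per the labels' protocols. The submitters' processing notes name fastp 0.23.4, STAR 2.5.3a, featureCounts and GRCh38. No annotation release, strand setting or use of molecular identifiers was found in the sources used here. The authors deposited whole-number counts per gene with gene position and exon length. Between 72.0% and 73.5% of counts from 1 to 50 were even, so a count may be nearer a mate than a fragment.

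Counts were tested with edgeR 4.0.16 (R 4.3.3, limma 3.58.1): filterByExpr, TMM scaling, robust quasi-likelihood fits, siNAT10 against siControl (n = 2 each), Benjamini-Hochberg adjustment over 20098 genes, threshold 0.05. Fold changes are siNAT10 minus siControl on the log2 scale, with SE, and intervals are unadjusted 95% intervals. CPM uses TMM-scaled totals; CPM per kilobase divides by the deposited exon length. The fit was checked on simulated counts, and the recovery that check requires was lowered after its first run. Recovery was required only for the largest simulated fold change, which exceeded that of every tested member. The check therefore says little about how well smaller changes are called. The alternatives were RLE and totals-only scaling, DESeq2 1.42.0, no count filter, a filter of 50 counts in 2 libraries, halved counts, removal of rows whose exons overlap another gene, a replicate block and each library left out. Members and lists were chosen with earlier results of these data known, as were the sequences and motifs shown. From each related list, up to 4 called genes with the smallest adjusted p were named; TXNDC9, TTC5 and SCAPER were named outside that rule, with their values known. Some sequences of the members are not reported here.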

Additional observations from a re-analysis of the deposited data

How the results depend on the processing

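Counts of calls over each gene group are given where they changed by more than 1.5 times. Removing rows with overlapping exons removed members and rows by construction: 1894 genes were higher and 2040 lower, members were 12 higher and 3 lower with median 0.38, prefoldin had 3 higher, cofactors 1 and 1, alpha- and beta-tubulins 0 higher and 1 lower, gamma-tubulin and complex genes 1 lower, modifiers 2 lower, R2TP genes 2 higher, microtubule regulators 5 lower and clients 1 lower. With totals alone, CCT, prefoldin and R2TP genes had 1 lower each, cofactors and modifiers 1 higher each, gamma partners 5 higher, clients 4 lower, and the members' median was 0.23. With DESeq2, cofactors and alpha- and beta-tubulins had 1 lower each and modifiers 2 lower, with median 0.35. RLE gave alpha- and beta-tubulins 1 lower and median 0.35, no filter gave CCT 1 lower and median 0.32, the 50-count filter median 0.38 and halved counts median 0.35. The replicate block gave CCT 1 lower, cofactors 1 lower and folding partners 1 higher, and members 25 higher and 6 lower, with CCT6B gaining a call (adjusted p = 0.0439) and TBCE losing one (0.0562). The correlation of same-numbered deviations was -0.098 over 9992 genes, which showed no sign of pairing. With 1 difference between replicates per group, it cannot exclude that same-numbered libraries were paired. The causes were not tested.

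Leaving out 1 library at a time gave ranges of 0 to 1 lower for CCT and for prefoldin, 1 to 2 higher and 1 to 2 lower for cofactors, and 1 to 2 lower for alpha- and beta-tubulins. It gave 2 to 4 lower for modifiers, 0 to 1 higher and 1 to 2 lower for folding partners, 5 to 8 higher and 1 to 4 lower for gamma partners, 5 to 8 lower for microtubule regulators and 1 to 2 lower for clients. Members were 22 to 26 higher and 4 to 7 lower, with median 0.36 to 0.38. Without division by length, the TUBB4B share difference reversed from 0.36 to -0.031 percentage points. Of the 67 single genes' results over the alternatives, 743 kept their call or lack of one, 18 lost and 7 gained a call. Reversals, counted only where 1 of the 2 fits passed, were 0. Genes that did not pass could change sign and still count as kept. Over the alternatives PDCL ranged from -0.010 to 0.16 and NAT10 from -0.024 to 0.12.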
